A study of Caenorhabditis elegans with 2 samples.

Results

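The nematode Caenorhabditis elegans has 5 annotated genes for the RNA of the signal recognition particle (SRP), srpr-1.1, srpr-1.2, srpr-2.1, srpr-2.2 and srpr-3, and 1 annotated gene, rpr-1, for the RNA of ribonuclease P (RNase P). These 6 genes, of 46890 annotated on the nuclear chromosomes, were taken by their symbols from the Ensembl and RefSeq annotations of WBcel235. The group was chosen by measured values of these same lists, the ranks of the ALY-1 peaks beside the genes and their summit positions, so those values are given as a description, without a test. Occupancy of ALY-1 on chromatin had been measured by ChIP-seq in early embryos of strain OP502, which carries unc-119(tm4063) III and the transgene wgIs502. The transgene line stably expresses ALY-1 with a GFP-FLAG tag at the C-terminal end, and embryos of hermaphrodites were taken 0 hours after egg bleaching and precipitated with an antibody to GFP. The series holds 1 group with 2 biological replicates, both set against the same control alignment. Whether untagged ALY-1 was also present is not stated in the labels, and a precipitation from worms without the tag was not analysed here. A pooled list of 30000 candidate peaks was called on both replicates together, and 881 of them form the thresholded set, which passed the irreproducible discovery rate procedure. Those 881 were the 881 strongest of the pooled list by signal, the score that the authors' peak caller gave each peak. Each replicate has a candidate list of its own, also with 30000 peaks, and sequencing depth is unknown.

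The SRP is a ribonucleoprotein that recognises signal sequences as they leave the ribosome and brings the translating ribosome to the membrane of the endoplasmic reticulum. Its RNA is the scaffold on which the SRP proteins assemble. RNase P is the enzyme that removes the 5′ leader of precursor tRNAs, and its RNA is the catalytic subunit. In many animals both RNAs are made by RNA polymerase III, which also makes tRNAs, and which ends transcription at runs of T. The tRNA promoters lie inside the gene, in an A box and a B box, whereas RNase P RNA genes of vertebrates are driven from elements upstream that include a TATA box. ALY-1 is a worm member of the Aly/REF proteins, which are best known as adaptors that hand mature messenger RNA to the nuclear export machinery.

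The SRP RNA genes fall into 3 kinds by sequence, and the printed copies show how close they are, which matters for placing reads on them. The gene srpr-2.2 (chrIII:5031410-5031708, minus strand, ce11) is printed first from its 5′ end, with capitals at the 21 bases that differ in at least 1 of the 3 other copies on the same chromosome. The gene srpr-3 (chrV:9293334-9293632, minus strand) follows, with capitals at the 57 bases that differ from srpr-2.2. All bases were read from the ce11 genome.
srpr-2.2: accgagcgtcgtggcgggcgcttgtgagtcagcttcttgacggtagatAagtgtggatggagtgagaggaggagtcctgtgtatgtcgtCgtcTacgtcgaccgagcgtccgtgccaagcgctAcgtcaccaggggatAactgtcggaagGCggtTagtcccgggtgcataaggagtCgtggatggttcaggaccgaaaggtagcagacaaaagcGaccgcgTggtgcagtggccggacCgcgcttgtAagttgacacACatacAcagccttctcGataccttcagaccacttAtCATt
srpr-3: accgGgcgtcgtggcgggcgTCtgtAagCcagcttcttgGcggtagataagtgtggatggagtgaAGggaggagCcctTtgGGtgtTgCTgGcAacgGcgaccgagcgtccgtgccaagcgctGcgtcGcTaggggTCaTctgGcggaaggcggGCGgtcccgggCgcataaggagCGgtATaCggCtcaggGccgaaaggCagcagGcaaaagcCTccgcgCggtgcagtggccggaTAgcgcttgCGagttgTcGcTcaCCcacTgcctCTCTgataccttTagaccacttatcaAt

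The copies srpr-2.2 and srpr-2.1 were 99.0% identical over 299 aligned columns, with 3 substitutions, C90T, A249G and A265G, counted from 1 at the 5′ end of srpr-2.2 and written with the base of srpr-2.2 first. The copies srpr-1.2 and srpr-1.1 were 98.3% identical and differed in 5 columns. Between these pairs identity was 94.0% to 94.3%, and srpr-3 was 80.9% to 81.6% identical to the other 4 genes. Of the 299 columns, 232 (77.6%) were the same in all 5 genes, and the longest run without a difference was 25 bases, from column 99 to column 123. Similarity did not always extend into the flanks. In the 100 bases before the 5′ end, srpr-1.2 and srpr-1.1 shared 95 bases, whereas srpr-2.2 and srpr-2.1 shared 34.

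The 50 bases before each SRP RNA gene are printed because they hold the letters that the copies share upstream. Capitals mark AAAAACC and TTATAT.
srpr-2.2: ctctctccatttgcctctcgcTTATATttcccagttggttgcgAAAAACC
srpr-2.1: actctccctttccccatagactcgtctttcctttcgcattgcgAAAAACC
srpr-1.2: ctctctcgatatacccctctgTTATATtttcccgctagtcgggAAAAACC
srpr-1.1: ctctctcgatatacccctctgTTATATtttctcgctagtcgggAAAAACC
srpr-3: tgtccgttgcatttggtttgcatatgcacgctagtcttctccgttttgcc

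All 4 SRP RNA genes of chromosome III have AAAAACC in the last 7 bases before the gene, and neither srpr-3 nor rpr-1 has it in the last 20 bases. Searched on both strands of the last 20 bases, AAAAACC was found at 0.853% of all 46890 genes and at 0.327% of the 612 tRNA genes. Both AAAAACC and TTATAT were picked from the upstream sequences of these SRP RNA copies. The shares at other genes are thus a description and no test. The letters TTATAT start 29 bases before the 5′ end of srpr-2.2, srpr-1.2, srpr-1.1 and rpr-1. They were found on either strand of the 50 upstream bases at 7.54% of all genes and 5.23% of tRNA genes. The shorter TATA was found in the same window at 4 of the 6 genes, at 24.7% of all genes and at 17.8% of tRNA genes. The letters GTTCGANNC, the core of the tRNA B box, were searched on both strands within the genes. They were found in 0 of the 6 genes, in 72.2% of tRNA genes and in 3.83% of windows of 299 bases that start at the 5′ end of every annotated gene. A run of TTTT on the gene strand lay within 15 bases of the 3′ end in 6 of 6 genes, against 45.8% of all genes and 98.4% of tRNA genes. The ends of srpr-2.2 and srpr-3, 15 bases on each side of the annotated 3′ end, show such runs in capitals.
srpr-2.2: agaccacttatcaTTTTTggaaTTTTTagt
srpr-3: agaccacttatcaaTTTTgtaaaaatttag

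A gene was counted as having a peak where a summit, the position of highest signal, lay within 250 bp of it. Of the 6 genes, 4 had a thresholded summit within that distance, namely srpr-2.2, rpr-1, srpr-2.1 and srpr-1.2, against 2.45% of all annotated genes. When piRNA genes, which are numerous, were left out, the share of all genes was 3.64%. The shares were 27.6% for tRNA genes, 17.1% for snoRNA genes and 9.3% for snRNA genes. The snRNA class is as Ensembl annotates it, with several separate genes under 1 symbol and an entry of 22 bp that carries a microRNA symbol. Values of that class are given with this limit. All 6 genes had a summit of the pooled candidate list within 250 bp, as did 31.6% of all annotated genes and 45.9% of them without piRNA genes. Weak background regions are part of the candidate list, so the second count says little about any single gene. Because the genes were chosen with these ranks known, nothing is read from the difference between 4 of 6 and the shares of other classes. Just inside the thresholded set the weakest peak, at rank 881, had a signal of 85.53, and the strongest peak outside it, at rank 882, had 85.52.

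**Figure D1:**
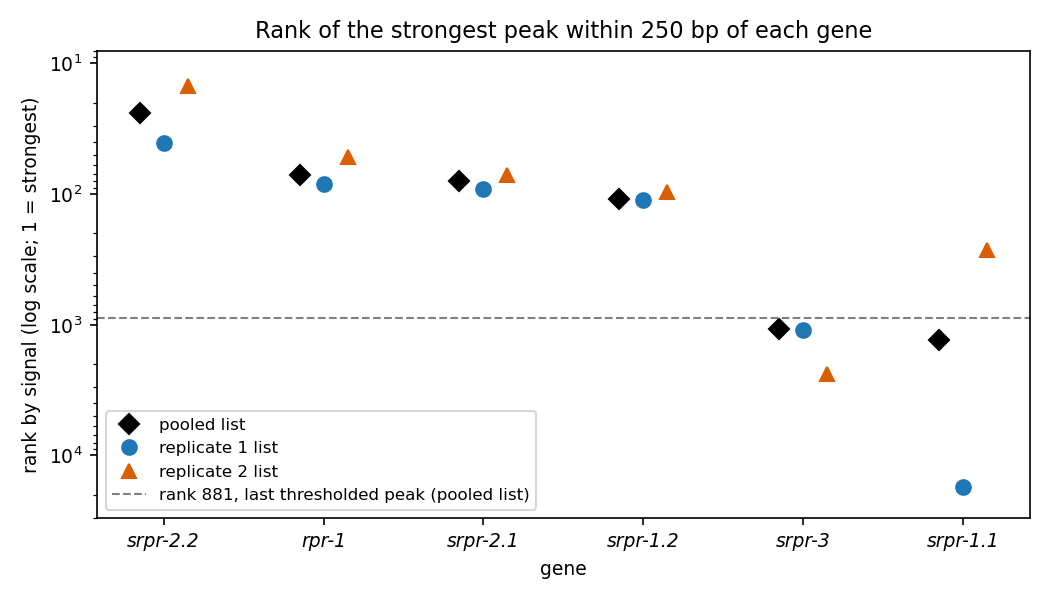
Rank by signal (vertical axis, log scale, 1 is the strongest) of the strongest peak with its summit within 250 bp of each gene, in the pooled list (diamonds), the replicate 1 list (circles) and the replicate 2 list (triangles), with no error bars because each point is 1 peak. The genes srpr-2.2, rpr-1, srpr-2.1 and srpr-1.2 sit between ranks 15 and 110 in all 3 lists, whereas srpr-1.1 spans ranks 268 to 17334. At srpr-1.1 the limit leaves out a replicate 1 peak at rank 332, with its summit 259 bp from the gene.

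The strongest peak was at srpr-2.2. It had a signal of 303 and rank 24 of 30000 in the pooled list, rank 41 with a signal of 113 in replicate 1, and rank 15 with a signal of 188 in replicate 2. The pooled peak (chrIII:5031608-5031744) was 137 bp wide, narrower than the median of 484 bp, and its summit lay inside the gene, 99 bp from the 5′ end and at the edge of the peak interval. The replicate summits lay 95 and 105 bp from the 5′ end, so the position moved by 10 bp between replicates. A second thresholded peak (chrIII:5031570-5032053, rank 787, signal 88.3) had its summit 104 bp before the 5′ end. It ranked 5953 in replicate 1 and 307 in replicate 2. The gene lies in an intron of klp-6, which encodes a kinesin and runs on the opposite strand, 38 bp from the nearest exon of that gene. It overlaps the non-coding gene R144.16, which runs on the same strand as srpr-2.2, and the second summit lay in R144.16, 5 bp from its 5′ end. Which of the overlapping genes a summit belongs to cannot be told apart from peak positions.

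The gene rpr-1 (chrI:13463955-13464207, plus strand, 253 bp) had a pooled signal of 221 at rank 72. It ranked 84 in replicate 1 with a signal of 89.3, and 52 in replicate 2 with a signal of 144. The pooled peak (chrI:13463880-13464000) was 121 bp wide, and its summit lay 11 bp inside the gene, the nearest to a 5′ end among the 6 genes. The replicate summits differed by 72 bp, from 60 bp inside the gene in replicate 1 to 12 bp before it in replicate 2. A weaker candidate at rank 3335 had its summit 215 bp from the 5′ end. The gene lies antisense in an intron of ints-8, which encodes a subunit of the Integrator complex, and the nearest exons of that gene are 555 and 1217 bp away. Every stretch of 36 bases inside rpr-1 occurs once in the nuclear genome.

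The gene srpr-2.1 (chrIII:5211220-5211518, plus strand) stands between protein-coding genes, 2111 bp from syx-16 and 263 bp from ZC155.4. Its pooled peak (chrIII:5211205-5211688) had a signal of 212 at rank 80. In replicate 1 it ranked 92 with a signal of 85.1, and in replicate 2 it ranked 72 with a signal of 126. The summit lay 227 bp from the 5′ end in the pooled list, 257 bp in replicate 1 and 194 bp in replicate 2. All 3 summits were in the downstream part of the 299 bp gene. A second candidate, 433 bp from the 5′ end and beyond the gene, ranked 25956 in the pooled list, and one at 397 bp ranked 716 in replicate 2.

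The gene srpr-1.2 (chrIII:4369468-4369766, plus strand) lies in an intron of ckb-2, a gene of the choline kinase family on the same strand, with exons of ckb-2 at 305 and 100 bp. Its pooled peak (chrIII:4369372-4369855) had a signal of 185 at rank 109. It ranked 110 in replicate 1 with a signal of 78.8, and 97 in replicate 2 with a signal of 113. The summit lay 146 bp from the 5′ end in the pooled list, 139 bp in replicate 1 and 282 bp in replicate 2, a difference of 143 bp between replicates. A second pooled candidate at rank 1262 had its summit at 351 bp, beyond the 3′ end.

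These 4 genes ranked alike in the lists. Each had the highest −log10 q of its list, 2.73 in the pooled list, 2.64 in replicate 1 and 2.55 in replicate 2. That value does not order them, because 270 pooled peaks, 220 peaks of replicate 1 and 179 peaks of replicate 2 share it. The order srpr-2.2, rpr-1, srpr-2.1, srpr-1.2 was the same by signal in the pooled list and in each replicate, but with 2 replicates no error of a rank can be given. The neighbours rpr-1 and srpr-2.1 were close, at ranks 84 and 92 in replicate 1 and 52 and 72 in replicate 2.

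The gene srpr-3, on a different chromosome from the other SRP RNA genes, had no thresholded summit. Its strongest pooled peak (chrV:9293231-9293714) had a signal of 80.3, a −log10 q of 2.22 and rank 1078, outside the 881. It ranked 1104 in replicate 1 with a signal of 38.1, and 2392 in replicate 2 with a signal of 39.1. The summit was the most stable of the 6, at 159 bp from the 5′ end in the pooled list, 163 bp in replicate 1 and 159 bp in replicate 2. A weaker candidate 41 bp before the gene ranked 12498. The gene lies between protein-coding genes, 1169 bp from ZK682.7 and 4000 bp from F44A2.5, and it overlaps the non-coding gene F44A2.13.

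The gene srpr-1.1 (chrIII:4378909-4379206, minus strand, 298 bp) also had no thresholded summit within 250 bp. Under that limit its ranks differed most between replicates. The strongest pooled candidate (chrIII:4378614-4379097) had a signal of 76.5, a −log10 q of 2.14 and rank 1297, with its summit 350 bp from the 5′ end and 53 bp beyond the gene. In replicate 1 the strongest candidate within 250 bp ranked 17334 with a signal of 15.6, and in replicate 2 it ranked 268 with a signal of 72.8. A thresholded peak (chrIII:4378408-4378891, rank 397, signal 109) had its summit 259 bp from the gene, so the distance of 250 bp leaves it out. In replicate 1 that peak ranked 332 with a signal of 53.0, at the same position. This summit lay in a coding exon of pals-26, 257 bp before the 3′ end of that gene, which converges on srpr-1.1 and ends 2 bp from it. The summit of replicate 2, 184 bp beyond srpr-1.1, lay between the pooled pair. Its peak (chrIII:4378483-4378966) overlaps the replicate 1 peak at rank 332 (chrIII:4378410-4378889). Ranks 17334 and 268 thus belong to different peaks, and the contrast between them depends on the limit of 250 bp.

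**Figure D2:**
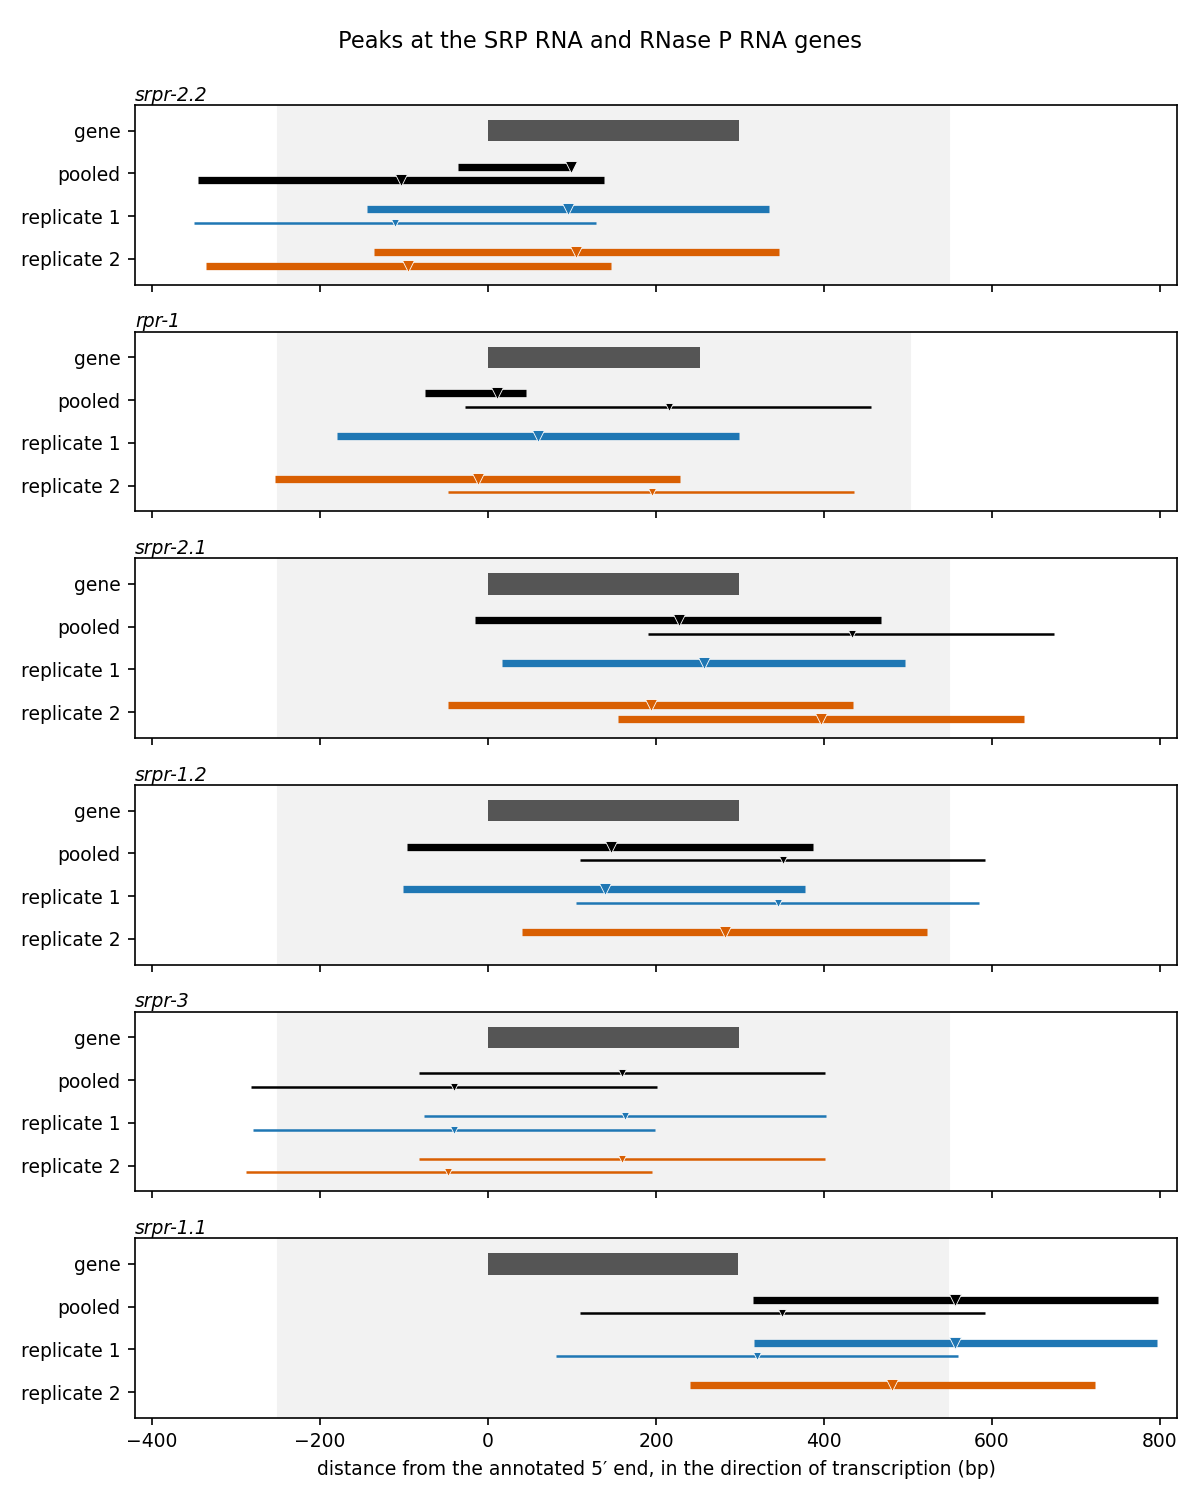
Peaks (bars) and summits (triangles) around each gene, by distance in bp from the annotated 5′ end, with the gene as a grey bar and the 250 bp zone shaded. Thick bars are peaks of the thresholded set or, in a replicate, of its 881 strongest; summits at srpr-3 differ by 4 bp between replicates and those at srpr-1.2 by 143 bp.

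Across the genes, 5 of 6 had the summit of the strongest pooled peak inside the gene, and srpr-1.1 was the exception. The strongest thresholded summits of the 4 genes lay at a median of 122.5 bp from the 5′ end, with an interquartile range of 77 to 166.25 bp. In replicate 2 alone, where srpr-1.1 was among the genes reached by the 881 strongest peaks, the median was 194 bp. By the pooled measure the median was 14 bp at the 169 tRNA genes with a thresholded summit and −41 bp (before the gene) at 59 snoRNA genes. At the 12 snRNA genes with one, a class of doubtful symbols, it was 145 bp, with an interquartile range of 70 to 199.75 bp. A downstream median is thus not particular to the SRP and RNase P RNA genes. The summit was inside the gene at 4 of 4 SRP and RNase P RNA genes, at 50.3% of those tRNA genes, 20.3% of the snoRNA genes and 25% of the snRNA genes. A longer gene holds more positions, and the 6 genes, at 253 to 299 bp, are longer than any of those tRNA genes, so these shares are not on an equal footing. The median rank of the 4 peaks was 76, against 173 at tRNA genes, 74 at snoRNA genes and 424.5 at snRNA genes. Among those classes, 52 tRNA genes, 37 snoRNA genes and 1 snRNA gene had a peak at rank 109 or stronger.

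**Figure D3:**
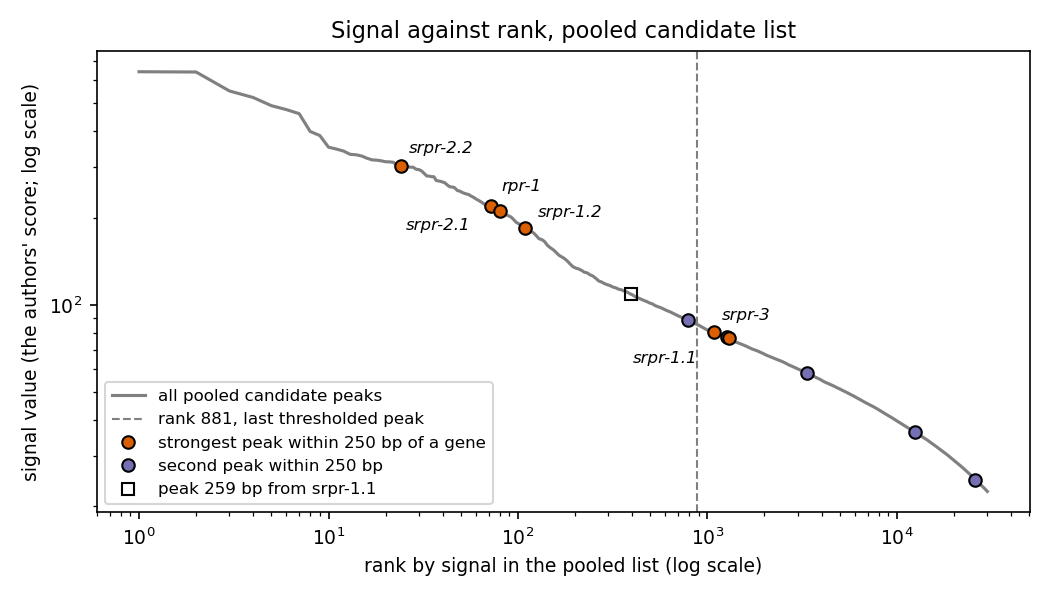
Signal (vertical axis, log scale, the authors' score) against rank (horizontal axis, log scale) for the pooled candidate list, with the strongest peak within 250 bp of each gene in orange, other peaks within 250 bp in purple and the thresholded peak 259 bp from srpr-1.1 as an open square. The 4 highest genes run from 303 to 185, and srpr-3 and srpr-1.1 fall right of the dashed line at rank 881 with 80.3 and 76.5.

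Each of the 6 genes had a pair of pooled summits within 300 bp of the gene, and the spacing was nearly constant, at 200 to 206 bp. The stronger of the pair was 1.42 to 8.53 times as high by signal, with the smallest ratio at srpr-1.1 and the largest at srpr-2.1. The same spacing was common elsewhere in the list. The shortest distance between a thresholded summit and the nearest other pooled summit was 199 bp over all 881. Of the 881, 496 (56.3%) had another pooled summit within 300 bp, and 269 (30.5%) had their nearest one at 200 to 206 bp. The pairs at the 6 genes were taken by distance from the gene, whether thresholded or not, so the measures differ. The weaker summit lay upstream of the stronger at srpr-2.2, srpr-3 and srpr-1.1 and downstream of it at the other 3 genes.

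The copies on chromosome III share long stretches, so how reads were placed can bear on these values. Of all stretches of 36 bases inside the gene, 33.0% occurred once in the nuclear genome at srpr-2.2, 31.4% at srpr-2.1, 28.8% at srpr-1.2 and 14.8% at srpr-1.1. At srpr-3 and rpr-1 all did. With 50 bases the shares were 40.4%, 38.8%, 41.2% and 23.3% for those 4 genes, again with all stretches unique at srpr-3 and rpr-1. The flanks are largely unique: in the 300 bp upstream 86.8% to 100% of 36-base stretches occurred once, and downstream 90.2% to 100% did. Over the strongest pooled summit the unique share was 72.2% at srpr-2.2, 41.7% at srpr-2.1 and 0% at srpr-1.2, and 100% at the other 3 genes. Neither the read length nor the treatment of reads with several matches is given in the sources used here. The part of shared sequence in the ranks and positions was not tested.

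**Figure D4:**
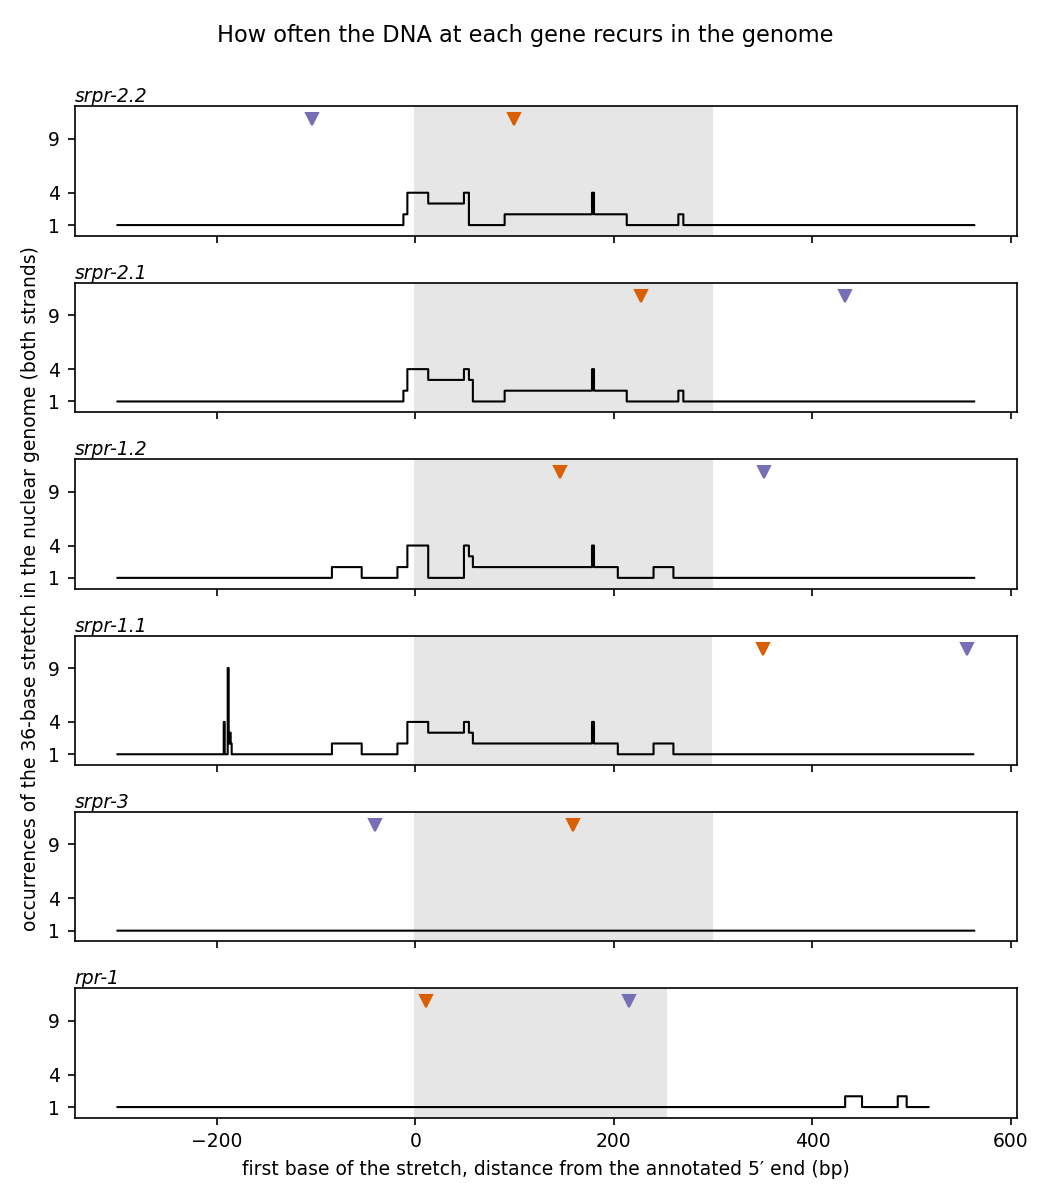
Number of occurrences in the nuclear genome (both strands) of the 36-base stretch starting at each position, by distance in bp from the annotated 5′ end, with the gene shaded, the strongest pooled summit within 250 bp as an orange triangle and the other pooled summit within 300 bp as a purple one. Stretches inside the chromosome III copies occur up to 4 times, and those of srpr-3 and rpr-1 occur once.

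Protein-coding genes tied to the same particles by name were also examined. Of 16 protein-coding genes whose symbol or RefSeq product names the SRP or RNase P, 0 had a thresholded summit within 250 bp, where 2.45% of all annotated genes had one, and 8 had a summit of the candidate list, where 31.6% of all annotated genes and 45.9% without piRNA genes had one. Both counts are near those shares, so they are no result about these genes. The list was made from symbols and product text, and some of its entries are not clearly subunits of either particle. The strongest candidate was at srpa-72, an SRP subunit, at rank 4250, and it ranked 6814 in replicate 1 and 4096 in replicate 2. Weaker candidates were at F25G6.9 (SRP 14 kDa protein) at rank 16943, Y37E11AM.4 (RNase P) at rank 18409, ZK512.4 (SRP 9 kDa protein) at rank 23692, and Y62E10A.24 (RNase P subunit p20) at rank 24742. The last 2 of the 8 ranked between 24742 and 26413. The one at rank 24742 has the same peak as Y62E10A.24, so the 8 genes do not stand for 8 separate peaks. These ranks lie far into the candidate list, which includes background.

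Among other small RNAs made by RNA polymerase III, the RNA of RNase MRP, a relative of RNase P that shares most of its proteins and processes ribosomal RNA, had values like those of rpr-1. Its gene mrpr-1 (chrII:7200233-7200418) had a thresholded peak at rank 86 with a signal of 206 and its summit 49 bp inside the gene. It ranked 96 in replicate 1 and 78 in replicate 2. The Y RNA gene yrn-1 had no pooled summit within 250 bp, and its replicate candidates ranked 13804 and 25151. Of 16 genes for 5S ribosomal RNA named rrn-4, 0 had a thresholded summit and 1 had a candidate summit, at rank 22026. Of all annotated genes, 2.45% had a thresholded summit and 31.6% a candidate summit within 250 bp. The treatment of reads with several matches is unknown here too, so nothing is read from the rrn-4 counts.

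The peaks nearest in signal to those of the strongest and the weakest of the 4 genes mostly had another annotated RNA gene within 250 bp. The share of all 881 thresholded peaks with such a gene was not counted, so nothing is read from this. Around srpr-2.2, rank 22 lay at the non-coding genes K10H10.14 and K10H10.11, rank 23 at the snoRNA gene B0334.12, rank 25 at the tRNA gene W03G11.t1 and rank 26 at the tRNA gene sup-5 and the non-coding gene B0523.6. Around srpr-1.2, rank 108 lay at the snoRNA gene T10B9.11 and rank 111 at the tRNA gene F52H2.t2 and the non-coding gene F52H2.10. Ranks 107 and 110 had no RNA gene within 250 bp, and their nearest protein-coding genes were unc-112, 394 bp away, and dnj-29, 164 bp away. Likeness here is the signal in the pooled list alone. The replicate ranks of these 8 peaks ran from 10 to 140 in replicate 1 and from 17 to 109 in replicate 2.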

How the data were processed

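Per the file listings deposited with the samples, each replicate's candidate list, the pooled list and the optimal set were made on ce11 with 1 control alignment. Neither the aligner nor the peak caller and its settings, nor the threshold on the irreproducible discovery rate, is given in the sources used here. As the measure of peak strength, the signal score deposited by the authors served to rank the peaks of each list. The authors' deposited −log10 q-value was used as it stands, and the p column, a placeholder, was not used. Lists on ce10 were not used.

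Gene positions came from Ensembl release 115 of WBcel235, the assembly of ce11, and RefSeq gave identical positions for all 6 genes. A summit counted for a gene within 250 bp. The members and lists were chosen with earlier results of these data known. Named genes were all members, their neighbours, particle proteins (up to 6 by rank), other RNA polymerase III genes and the 2 peaks on each side in rank; U6 genes could not be picked by RefSeq description. No test was made, because there is 1 group. Alignment used MAFFT 7.526 and BLAST 2.17.0, and the rest Python 3.11.15, numpy 2.4.6, pandas 2.3.3 and matplotlib 3.10.9. Distances and the counting of stretches were tested on simulated data.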

Additional observations from a re-analysis of the deposited data

How the results depend on the processing

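The number of genes with a thresholded summit, 4, was 4 within 100 bp, for overlap of peak and gene, with RefSeq positions, among the stronger 440 peaks and in replicate 1 alone. It was 5 within 500 bp and in replicate 2 alone, where srpr-1.1 joined, and 3 for a window reaching 1000 bp before and 200 bp past the 5′ end, where srpr-2.1 was lost. The candidate count stayed at 6 and the protein count at 0 under every alternative run. The median offset of 122.5 bp ran from 117 to 149.5 bp when either replicate was left out and the set was held at the same 4 genes. Over the 5 genes reached in replicate 2 alone it was 194 bp, a setting chosen after seeing the data. Without either replicate in turn, rank ran from 15 to 41 at srpr-2.2, 52 to 84 at rpr-1, 72 to 92 at srpr-2.1, 97 to 110 at srpr-1.2, 1104 to 2392 at srpr-3 and 268 to 17334 at srpr-1.1. Ranked by −log10 q, srpr-2.2, rpr-1, srpr-2.1 and srpr-1.2 tied at 135.5. With 2 replicates, leaving one out gives the other's own value, so these ranges show the disagreement of the replicates and no stability. The range at srpr-1.1 also depends on the limit of 250 bp, which leaves out a replicate 1 peak at rank 332. No paired analysis was possible because there is 1 group. Depth is unknown, and a rank from 1 list carries no error.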

Other observations

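The nuclear genome was searched with BLAST for DNA resembling the 6 genes. At an E-value of at most 1e-05 it held 12 loci, of which 6 were the genes themselves. The other 6 were short stretches of 47 to 54 bp on the X chromosome, each most similar to srpr-3 at 89% to 94% identity. Of those, 0 had a thresholded summit within 250 bp, and 1 had a candidate, at rank 28691.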
